A study of Mus musculus with 9 samples.

Results

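The matrix metalloproteinases, their tissue inhibitors, the ADAMTS proteases and the lysyl oxidases were followed through RNAseq of 9 mammary tumors. The host mice were Brca1Co/Co;MMTV-Cre;p53+/-. Members were taken by gene symbol alone, as *Mmp* or *Adamts* followed by a number, *Timp1* to *Timp4*, *Lox* and *Loxl1* to *Loxl4*. The rule gave 51 of the 35275 genes in the table of counts: 23 MMPs, 4 TIMPs, 19 ADAMTS proteases and 5 lysyl oxidases. Every mouse, controls included, carried the conditional Brca1 allele, Cre under the MMTV promoter and only 1 functional p53 allele. Ages are not given in the labels. Mice received saline, free Talazoparib (i.v. TLZ, dissolved in DMSO and diluted in saline) or liposomal Talazoparib (NanoTLZ). All 3 were given i.v., for 5 doses at 3 times a week. Both drug groups received 0.33 mg/kg Talazoparib per dose. Talazoparib inhibits PARP enzymes. There were 3 mice in each group and each tumor was 1 library, with 17538380 to 21194980 counts. Tumors of mice given empty nanoparticles were not analysed here. A difference between NanoTLZ and saline therefore cannot be told apart from an effect of the carrier. The controls are described as given saline, with no DMSO named. A difference between i.v. TLZ and saline likewise cannot be told apart from an effect of DMSO.

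Matrix metalloproteinases are zinc enzymes that cut collagens, proteoglycans and other proteins outside the cell. Most are secreted or displayed as inactive precursors, and TIMPs block the active enzymes. ADAMTS proteases trim proteoglycans and the ends of fibrillar collagens, while lysyl oxidases crosslink collagen and elastin. In mammary tumors many of these genes are known from fibroblasts and macrophages as well as from tumor cells. In RNA from whole tumors, fewer cells of a type and less RNA per cell cannot be told apart.

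The members furthest above saline in the comparison that pools both treated groups lie near each other on chromosome 9. There, 10 MMP genes stand within 427 kb (chr9:7272514-7699585, GRCm38), in the order *Mmp13*, *Mmp12*, *Mmp1b*, *Mmp3*, *Mmp1a*, *Mmp10*, *Mmp8*, *Mmp27*, *Mmp20* and *Mmp7*. The 120 bases before the start of the 4 with the highest levels are shown because these genes had the highest positive differences of the 41 tested members in that comparison. *Adamts20*, at -4.41 on the log2 scale and dependent on 1 saline tumor, was as far from saline in the other direction. They are from the forward strand of RefSeq on GRCm38.p6, at chr9:7272394-7272513, chr9:7347254-7347373, chr9:7445702-7445821 and chr9:7502222-7502341 in the order printed. Capitals mark the AP-1 site (TGAGTCA or its reverse complement TGACTCA) and the TATA box (TATAAA or its reverse complement TTTATA).
Mmp13: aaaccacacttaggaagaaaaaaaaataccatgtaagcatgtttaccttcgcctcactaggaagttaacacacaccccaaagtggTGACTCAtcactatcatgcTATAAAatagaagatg
Mmp12: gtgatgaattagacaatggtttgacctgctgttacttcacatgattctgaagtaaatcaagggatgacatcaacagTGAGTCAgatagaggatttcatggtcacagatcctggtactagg
Mmp3: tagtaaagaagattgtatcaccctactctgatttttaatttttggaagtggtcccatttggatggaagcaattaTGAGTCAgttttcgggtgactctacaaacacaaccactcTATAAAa
Mmp10: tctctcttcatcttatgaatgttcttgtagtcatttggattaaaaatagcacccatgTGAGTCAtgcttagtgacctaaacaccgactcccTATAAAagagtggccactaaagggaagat

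The AP-1 site is the sequence bound by Fos and Jun dimers. It was searched with the other motifs in windows of 300 bases that hold 250 bases before each start and 50 from it on. Its first base lay 35 bases before the start of *Mmp13*, 44 before *Mmp12*, 46 before *Mmp3* and 63 before *Mmp10*. *Mmp12* has 2 listed starts, and the window shown is the one that holds the site. RefSeq windows were matched for 33 of the 51 members. The AP-1 site was in the windows of 7 of the 10 chromosome 9 genes, namely these 4 and *Mmp1a*, *Mmp1b* and *Mmp7*, and in 0 of the 23 other members with a window. Of all 32851 windows, 5.20% held it. The letters of the TATA box were anywhere in the windows of 9 of the 10 chromosome 9 genes, in 2 of the 23 others and in 13.6% of all windows. For *Mmp12* they began at base 5 from a listed start, so they are not among the bases printed. For *Mmp8* the match was TTTATA, 3 bases before the start. The core of the hypoxia response element (ACGTG, either strand) was in 2 of the 10, in 6 of the 23 and in 19.6% of all windows. A match describes the letters of a window only.

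**Figure D1:**
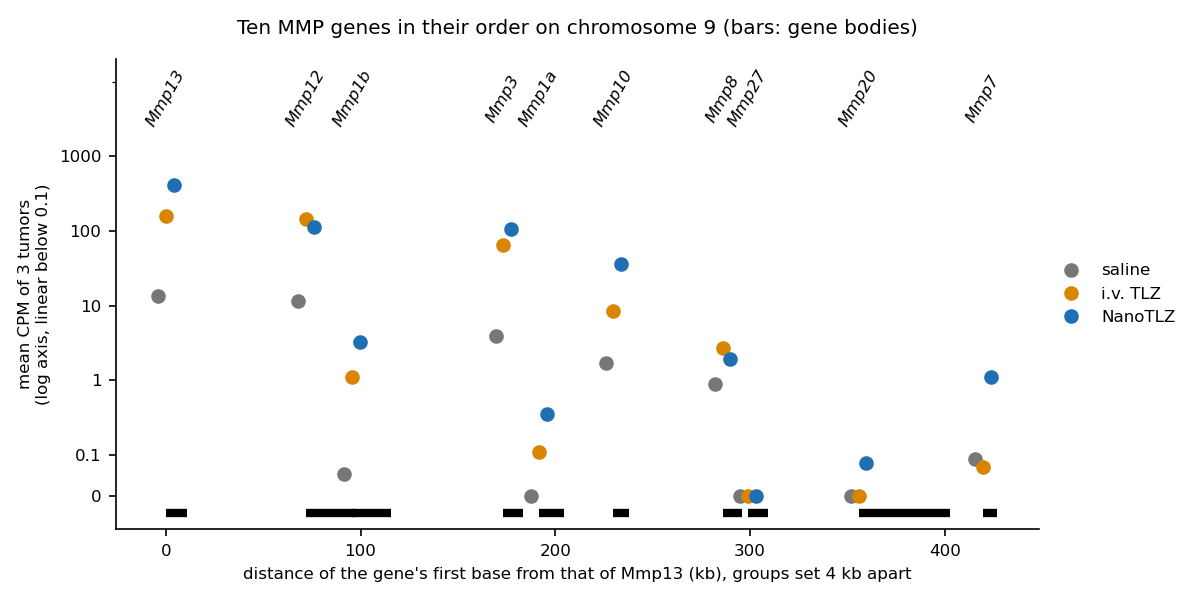
Mean CPM of 3 tumors for the 10 neighboring MMP genes, against the distance of each gene's first base from that of *Mmp13* in kb. Gray, orange and blue points are saline, i.v. TLZ and NanoTLZ, black bars are gene bodies and the vertical axis is logarithmic above 0.1; *Mmp13*, *Mmp12*, *Mmp3* and *Mmp10* stand higher in both treated groups than in saline, while *Mmp27* has no count.

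*Mmp3* (stromelysin 1) cuts proteoglycans and fibronectin and activates other MMPs. Its levels were 6.75, 4.10 and 0.780 CPM in saline tumors A3673, A3685 and A3688, 100.003, 78.0 and 16.5 CPM in i.v. TLZ tumors B3638, B3684 and B3700, and 164, 140.1 and 18.8 CPM in NanoTLZ tumors C3519, C3669 and C3698. CPM is the count of a gene scaled to its library's total after TMM normalization. All 6 treated tumors lay above all 3 saline tumors. The mean was 3.88 ± 2.99 CPM in saline, 64.8 ± 43.3 CPM after i.v. TLZ and 108 ± 78.0 CPM after NanoTLZ (SD, n = 3). On the log2 scale *Mmp3* was 4.07 ± 1.01 (SE) higher after i.v. TLZ and 4.80 ± 1.05 higher after NanoTLZ, which are 16.8-fold and 27.9-fold.

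*Mmp12* (macrophage elastase) was the other member with all 6 treated tumors above saline. It stood at 12.9, 18.3 and 3.17 CPM in saline, at 115, 54.9 and 261 CPM after i.v. TLZ and at 211, 84.1 and 42.0 CPM after NanoTLZ. The lowest treated tumor, C3698, was above the highest saline tumor, A3685. The log2 differences from saline were 3.65 ± 0.84 for i.v. TLZ and 3.29 ± 0.83 for NanoTLZ. They were 2.90 without B3700 and 2.46 without C3519. *Mmp12* shares 157 of its 7237 exon bases with *Mmp1b* on the opposite strand, and whether the counting used strand is not given in the sources used here.

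*Mmp13* (collagenase 3) cuts fibrillar collagens, above all type II. It had 11.1, 25.4 and 3.90 CPM in saline, 379.9, 22.9 and 75.0 CPM after i.v. TLZ and 724, 421 and 97.3 CPM after NanoTLZ. Every NanoTLZ tumor was above saline, but i.v. TLZ tumor B3684 lay below saline tumor A3685. The means were 13.5 ± 10.9, 159 ± 193 and 414 ± 313 CPM (SD, n = 3), and the log2 differences from saline were 3.56 ± 1.11 and 4.94 ± 1.19. Without i.v. TLZ tumor B3638 the first of them was 1.86, and without C3519 the second was 4.27.

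*Mmp10* (stromelysin 2) was lower, at 1.83, 3.05 and 0.184 CPM in saline, 15.7, 6.72 and 2.98 CPM after i.v. TLZ and 82.7, 18.2 and 6.73 CPM after NanoTLZ. The NanoTLZ tumors were all above saline, and i.v. TLZ tumor B3700 lay among the saline tumors. The log2 differences were 2.32 ± 1.08 and 4.41 ± 1.17. Without C3519 the second was 2.88, and without B3638 the first was 1.52. *Mmp8* (neutrophil collagenase) stayed between 0.229 and 4.00 CPM in all 9 tumors, with groups that overlapped.

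**Figure D2:**
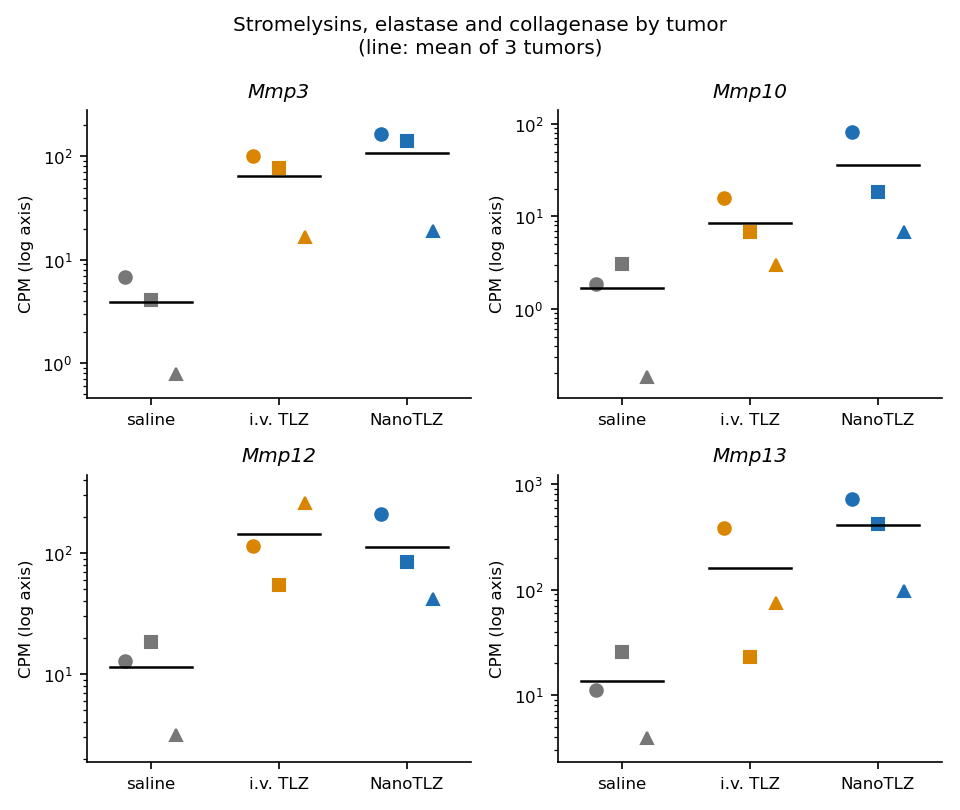
CPM of *Mmp3*, *Mmp10*, *Mmp12* and *Mmp13* in each of the 9 tumors, on logarithmic axes that differ between panels. Circles, squares and triangles are replicates 1, 2 and 3 of a group and lines are means of 3 tumors; the treated tumors do not overlap with saline for *Mmp3* and *Mmp12*, while 1 i.v. TLZ tumor lies within the saline range for *Mmp10* and for *Mmp13*.

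No member passed an adjusted p under 0.05 in edgeR's quasi-likelihood test over 15821 genes. That was so in each comparison: i.v. TLZ with saline, where 0% of all genes tested were called, NanoTLZ with saline (0.00632%), both treated groups together with saline (0.019%) and NanoTLZ with i.v. TLZ (0%). The comparisons with saline share the same 3 saline tumors. For *Mmp3* the edgeR adjusted p was 0.417 for i.v. TLZ and 0.552 for NanoTLZ, and for *Mmp12* it was 0.398 and 0.552. Over all edgeR alternatives, the adjusted p of *Mmp3* ran from 0.198 to 0.779 for i.v. TLZ and from 0.159 to 0.901 for NanoTLZ.

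DESeq2, fitted to the same 9 tumors, called 5 members between i.v. TLZ and saline, where 1.12% of all genes with an adjusted p were called. *Mmp3* (adjusted p = 0.00114), *Mmp12* (0.000700) and *Mmp13* (0.0189) were higher by DESeq2, and *Adamts3* (0.0223) and *Adamts9* (0.00217) were lower. Between NanoTLZ and saline it called 4 members, against 0.712% of all genes. These were *Mmp3* (adjusted p = 3.4e-05), *Mmp10* (0.00207), *Mmp12* (0.00540) and *Mmp13* (9.1e-05), all higher. With both treated groups together, DESeq2 called those 4 and *Adamts9*, against 1.53% of all genes, and between NanoTLZ and i.v. TLZ it called 0 members, against 0.0119%.

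Saline tumor A3688 stood apart. Its mean Spearman correlation with the other 8 tumors across genes was 0.867, against 0.916 to 0.947 for the others. Of the 41 tested members, 22 were lowest in A3688 and 7 were highest in it. The same was not counted over all genes, so these counts cannot be read as particular to the members. Without A3688, DESeq2 called *Mmp3* and *Mmp12* higher and *Adamts9* lower after i.v. TLZ, with *Mmp13* at an adjusted p of 0.243 and *Adamts3* at 0.363. After NanoTLZ it called the same 4 MMPs without this tumor. The edgeR log2 differences were then 3.59 and 4.34 for *Mmp3*, 3.21 and 2.87 for *Mmp12*, 3.12 and 4.53 for *Mmp13*, and 1.79 and 3.90 for *Mmp10*, for i.v. TLZ and NanoTLZ in that order.

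Without adjustment, 8 members were higher and 3 lower at a p under 0.05 of the edgeR test between i.v. TLZ and saline. Over all genes the shares were 4.91% higher and 5.47% lower. The higher members were *Mmp3*, *Mmp12*, *Mmp13*, *Mmp23*, *Timp2*, *Adamts8*, *Adamts16* and *Loxl2*, and the lower members were *Adamts3*, *Adamts9* and *Adamts15*. After NanoTLZ, 7 members were higher (3.51% of all genes) and 2 lower (5.49%). These were *Mmp2*, *Mmp3*, *Mmp10*, *Mmp12*, *Mmp13*, *Mmp28* and *Timp2* above saline and *Adamts9* and *Adamts20* below it. With both treated groups together the counts were 8 higher (4.8% of all genes) and 3 lower (8.29%). Between NanoTLZ and i.v. TLZ, 1 member was higher, *Adamts9* (0.449% of all genes), and 1 was lower, *Mmp23* (1.23%).

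The overlap of the groups was also counted. In NanoTLZ tumors 11 of the 41 tested members had every tumor above every saline tumor, against 7.82% of all genes, and 9 of those were among the 16 tested MMPs. *Adamts9* alone had every NanoTLZ tumor below saline (8.13% of all genes). In i.v. TLZ tumors *Mmp3*, *Mmp12* and *Loxl2* were separate above saline (5.99% of all genes) and *Adamts9* below (5.2%). All 6 treated tumors lay above saline for *Mmp3* and *Mmp12* (2.81% of all genes) and below it for *Adamts9* (2.66%). Every NanoTLZ tumor was above every i.v. TLZ tumor for 2 of the 41 members, *Adamts9* and *Mmp28*, and below for 1, *Mmp24*. Over all 15821 genes tested, 507 were separate above and 697 below in that comparison.

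The median log2 difference of the 41 tested members from saline was 0.59 for i.v. TLZ and 0.60 for NanoTLZ, where the medians of all genes tested were -0.03 and -0.09. For the 16 MMPs the medians were 0.96 and 0.93, for the 3 TIMPs 1.21 and 1.15, for the 5 lysyl oxidases 0.77 and 0.72, and for the 17 ADAMTS proteases 0.00 and -0.24. Of the 16 MMPs, 15 had a positive difference in each comparison, *Mmp15* being the exception, and 13 had without A3688. Without A3688 the medians of the tested members were 0.52 and 0.48, and those of the ADAMTS proteases turned positive, at 0.32 and 0.23. These members passed a filter on low counts, so the medians do not cover all 51.

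**Figure D3:**
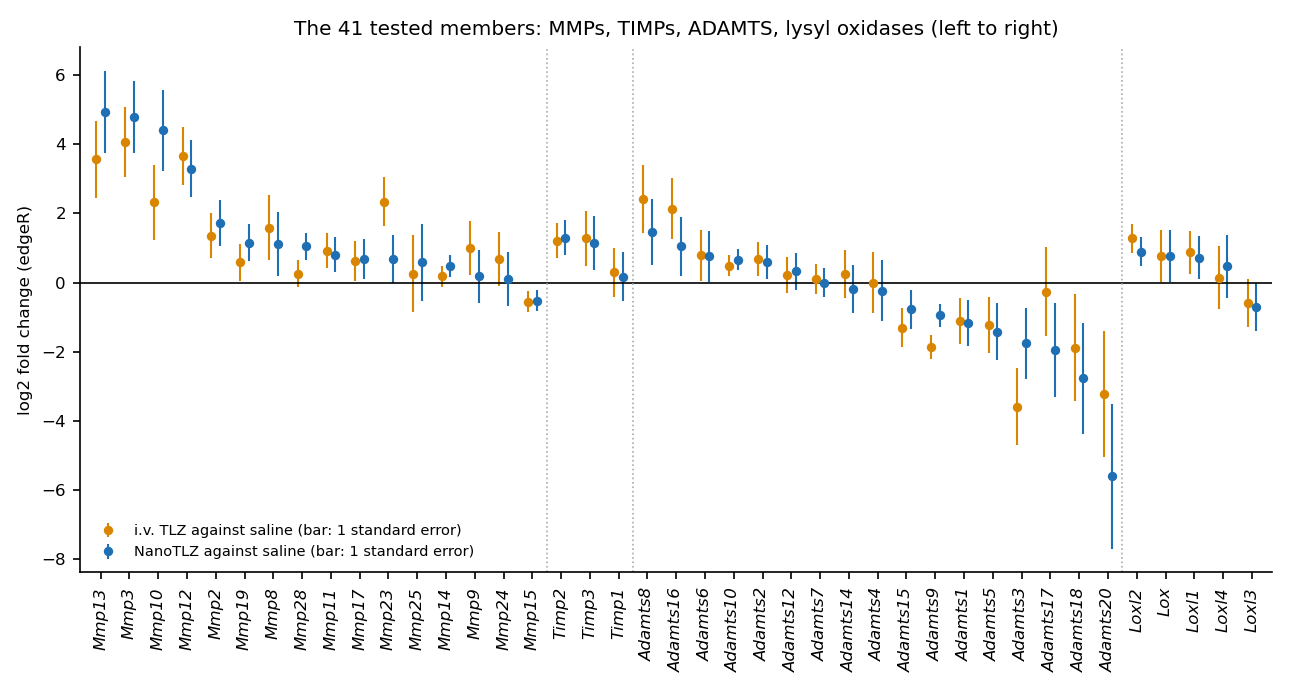
Log2 fold change against saline from edgeR for the 41 tested members, with i.v. TLZ in orange, NanoTLZ in blue, bars of 1 standard error and dotted lines between families. *Mmp13*, *Mmp3*, *Mmp10* and *Mmp12* have the highest values after NanoTLZ, and *Adamts20*, at -5.61, the lowest.

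Summed over the 23 MMPs, the level per kilobase of exon (RPKM) was 189, 189 and 107 in the saline tumors, 449, 235 and 234 in the i.v. TLZ tumors and 638, 447 and 276 in the NanoTLZ tumors. All treated tumors were above saline on this sum. *Mmp14* gave 45.3 to 51.1% of it in the saline tumors, 20.2 to 40.1% after i.v. TLZ and 15.1 to 49.1% after NanoTLZ, where C3698 lay within the saline range. *Mmp3*, *Mmp10*, *Mmp12* and *Mmp13* together gave 2.27 to 8.50% in saline, 26.9 to 49.6% after i.v. TLZ and 20.5 to 68.9% after NanoTLZ. These 4 were singled out for their differences, so their share is a description. The separation of the MMP sum rested on them. Without them the sums of i.v. TLZ tumors B3684 and B3700 lay within the saline range. By mean RPKM, *Mmp13* was among the 6 highest members in both treated groups and not in saline.

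The gelatinases *Mmp2* and *Mmp9* cut denatured collagen and type IV collagen. *Mmp2* was at 37.4, 28.6 and 20.4 CPM in saline, 161, 28.0 and 32.2 CPM after i.v. TLZ and 116, 122 and 47.4 CPM after NanoTLZ. NanoTLZ tumors were all above saline, while only B3638 of the i.v. TLZ tumors was. The log2 difference was 1.73 ± 0.67 for NanoTLZ (edgeR adjusted p = 0.552) and 1.36 ± 0.66 for i.v. TLZ, and the latter was 0.06 without B3638. DESeq2 fitted to the NanoTLZ and saline tumors alone called *Mmp2* (adjusted p = 0.0400), but not when fitted to 9 tumors. *Mmp9* was at 28.6, 51.3 and 3.07 CPM in saline, 89.9, 48.4 and 27.8 CPM after i.v. TLZ and 23.0, 32.8 and 38.1 CPM after NanoTLZ, with groups that overlapped.

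*Mmp14* is the membrane-bound enzyme that activates *Mmp2*, and it was the most abundant MMP per length in saline at 77.5 RPKM. Its 9 values lay between 326 and 809 CPM, a narrow range beside that of *Mmp13*. NanoTLZ tumors, at 573, 558 and 809 CPM, were all above the saline tumors at 549.7, 510.5 and 326 CPM, by 0.48 ± 0.31 on the log2 scale. The i.v. TLZ tumors, at 539.6, 562 and 473 CPM, overlapped with saline. *Mmp15*, another membrane-type enzyme, was lower, with 307, 261 and 181 CPM in saline, 150.2, 141 and 220.3 CPM after i.v. TLZ and 173, 156 and 192 CPM after NanoTLZ. Its log2 differences of -0.55 ± 0.29 and -0.52 ± 0.29 did not pass the test (edgeR adjusted p = 0.533 and 0.598). *Mmp17*, *Mmp24* and *Mmp25* stayed between 0.0459 and 4.71 CPM.

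Among the remaining MMPs, *Mmp11* (stromelysin 3, known from stroma around mammary carcinomas) had 11.3, 21.2 and 15.5 CPM in saline, 48.0, 11.4 and 31.7 CPM after i.v. TLZ and 18.1, 33.9 and 31.8 CPM after NanoTLZ, and the groups overlapped. *Mmp23* had 3.60, 7.05 and 2.80 CPM in saline, 18.7, 45.0 and 4.82 CPM after i.v. TLZ and 8.23, 5.13 and 8.12 CPM after NanoTLZ. It was the MMP that differed between the drug groups at an unadjusted p under 0.05, with a log2 difference of NanoTLZ from i.v. TLZ of -1.67 ± 0.70 (edgeR adjusted p = 0.9999), and -0.71 without B3684. *Mmp28* was between 5.15 and 7.97 CPM in NanoTLZ tumors and between 3.03 and 4.56 CPM in the 6 others, and *Mmp19* was between 12.3 and 22.0 CPM in NanoTLZ tumors and between 4.17 and 9.34 CPM in saline. *Mmp19* shares 22.3% of its exon bases with *Tmem198b* on the opposite strand.

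*Timp1*, which inhibits most secreted MMPs, had the highest level per length of all members in each group, with means of 201 RPKM in saline, 249 RPKM in i.v. TLZ and 226 RPKM in NanoTLZ tumors. Its values were 143, 349 and 44.4 CPM in saline, 218, 369 and 76.0 CPM after i.v. TLZ and 176, 287 and 140.4 CPM after NanoTLZ. The 3 groups overlapped. *Timp2*, which also takes part in the activation of *Mmp2* by *Mmp14*, was at 416, 279.6 and 142 CPM in saline, 984, 327 and 631 CPM after i.v. TLZ and 469, 708 and 891 CPM after NanoTLZ. NanoTLZ tumors were all above saline, and B3684 was the only i.v. TLZ tumor that was not. The log2 differences were 1.21 ± 0.50 and 1.30 ± 0.50 (edgeR adjusted p = 0.455 and 0.552). *Timp3*, which binds to the matrix, was at 83.5, 79.6 and 144 CPM in saline, 419, 28.3 and 299 CPM after i.v. TLZ and 211, 91.9 and 377 CPM after NanoTLZ, with overlapping groups. *Syn3* overlaps 21.3% of its exon bases on the opposite strand with 177 counts in all against 34322. *Timp4* had 1, 1 and 4 counts in saline, 1, 9 and 8 counts after i.v. TLZ and 23, 5 and 2 counts after NanoTLZ, too few for the test.

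**Figure D4:**
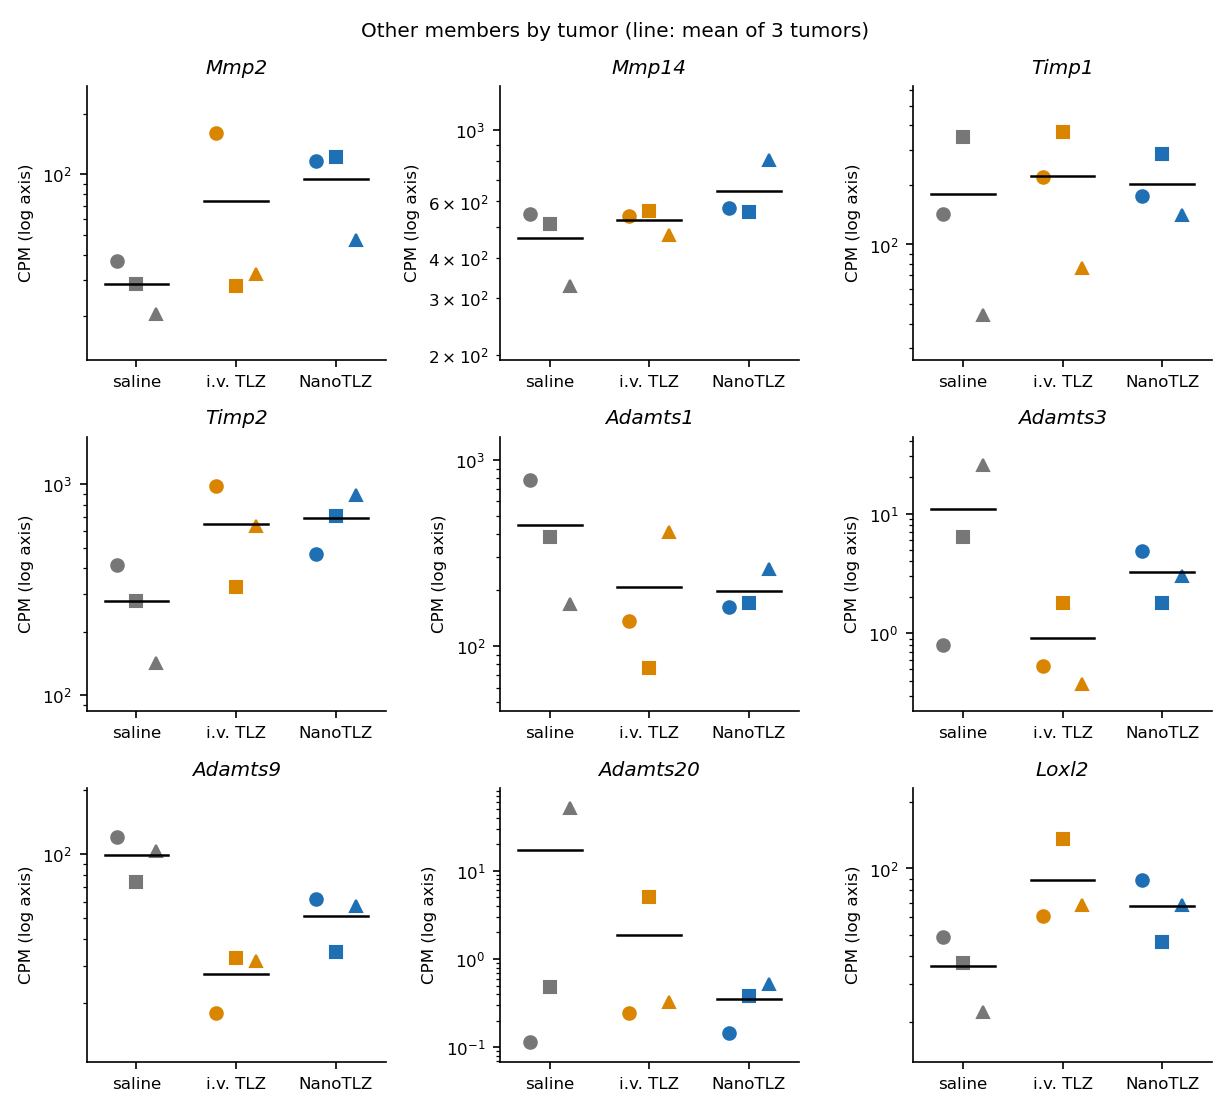
CPM of 9 other members in each tumor, on logarithmic axes that differ between panels, with circles, squares and triangles for replicates 1, 2 and 3 and lines at the mean of 3 tumors. *Adamts9* is lower in all 6 treated tumors than in saline, *Mmp14* stays within 326 to 809 CPM and *Adamts20* is high in saline tumor A3688.

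The hyalectanases *Adamts1*, *Adamts4*, *Adamts5*, *Adamts8*, *Adamts9*, *Adamts15* and *Adamts20* cut versican or aggrecan. Of these 7, 5 had a negative difference after i.v. TLZ and 6 after NanoTLZ, with median log2 differences of -1.23 and -0.95, or -0.93 and -0.74 without A3688. *Adamts9* was at 121, 74.0 and 103 CPM in saline, 17.9, 32.7 and 31.7 CPM after i.v. TLZ and 61.7, 34.9 and 57.5 CPM after NanoTLZ. No treated tumor reached the lowest saline tumor. On the log2 scale it was -1.86 ± 0.35 after i.v. TLZ and -0.95 ± 0.34 after NanoTLZ, which is 3.62-fold and 1.93-fold lower (edgeR adjusted p = 0.253 and 0.552). NanoTLZ tumors were all above i.v. TLZ tumors, which held for 507 of 15821 genes tested. The log2 difference was 0.91 ± 0.34, at an unadjusted p of 0.0242 in edgeR (edgeR adjusted p = 0.9999). Without A3688 the log2 differences of *Adamts9* from saline were -1.81 and -0.89.

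*Adamts1* was at 782, 387 and 169.6 CPM in saline, 137, 76.0 and 409.7 CPM after i.v. TLZ and 162, 171 and 261 CPM after NanoTLZ. The groups overlapped, and its mean level per length was 84.2 RPKM in saline, 39.1 RPKM in i.v. TLZ and 37.3 RPKM in NanoTLZ tumors. *Adamts4* (aggrecanase 1) had 729, 475 and 40.3 CPM in saline, 686, 101 and 458 CPM after i.v. TLZ and 532, 281 and 244 CPM after NanoTLZ, with no difference beyond this spread. *Adamts5* (aggrecanase 2) had 152, 38.2 and 13.9 CPM in saline, 30.4, 8.64 and 48.0 CPM after i.v. TLZ and 36.2, 19.3 and 20.8 CPM after NanoTLZ. Its log2 differences of -1.23 ± 0.81 and -1.42 ± 0.81 rested on saline tumor A3673, without which they were 0.16 and -0.01. *Adamts15* had 56.7, 18.2 and 68.6 CPM in saline, 21.2, 18.1 and 18.8 CPM after i.v. TLZ and 19.8, 12.7 and 51.3 CPM after NanoTLZ, with saline tumor A3685 inside the treated range.

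*Adamts20* and *Adamts3* took their direction or much of their size from A3688. *Adamts20* had 50.9 CPM in A3688 and between 0.114 and 4.97 CPM in the 8 others, and its log2 differences from saline of -3.22 ± 1.83 and -5.61 ± 2.09 became 2.61 and 0.23 without that tumor. *Adamts3*, a protease that removes the end of procollagens, had 0.801, 6.39 and 25.6 CPM in saline, 0.533, 1.80 and 0.379 CPM after i.v. TLZ and 4.86, 1.80 and 3.001 CPM after NanoTLZ. Its log2 difference was -3.59 ± 1.11 for i.v. TLZ (edgeR adjusted p = 0.425) and -1.98 without A3688. *Adamts17* and *Adamts18* were also highest in A3688, at 7.34 and 22.6 CPM, and the sign of their differences changed when A3688 was left out.

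The other procollagen proteases *Adamts2* and *Adamts14*, and the members *Adamts6*, *Adamts7*, *Adamts8*, *Adamts10*, *Adamts12* and *Adamts16*, had log2 differences between -0.18 and 2.41 in the comparisons with saline. *Adamts8* had the highest of them, at 2.29, 5.62 and 0.551 CPM in saline, 9.11, 33.3 and 2.60 CPM after i.v. TLZ and 4.62, 12.3 and 6.57 CPM after NanoTLZ. Its treated values overlapped with saline in both groups.

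Of the lysyl oxidases, *Loxl2*, which crosslinks collagen IV among other substrates, had 49.1, 37.3 and 22.4 CPM in saline, 60.8, 136 and 68.0 CPM after i.v. TLZ and 88.2, 46.2 and 68.2 CPM after NanoTLZ. All i.v. TLZ tumors were above saline, and C3669 was the only NanoTLZ tumor that was not. The log2 differences were 1.29 ± 0.42 and 0.90 ± 0.42 (edgeR adjusted p = 0.433 and 0.563). *Loxl1* had 27.6, 33.8 and 24.3 CPM in saline, 116, 14.98 and 25.4 CPM after i.v. TLZ and 52.1, 51.8 and 37.1 CPM after NanoTLZ, so that the NanoTLZ tumors alone were separate from saline. *Lox* had 45.8, 16.4 and 12.3 CPM in saline, 85.2, 8.53 and 33.3 CPM after i.v. TLZ and 53.1, 51.1 and 22.8 CPM after NanoTLZ, and its groups overlapped. For i.v. TLZ the log2 difference without B3638 was -0.25 for *Lox* and -0.50 for *Loxl1*, against 0.77 and 0.87 with it. *Loxl4* had 255, 115 and 10.4 CPM in saline, 239, 35.2 and 148 CPM after i.v. TLZ and 125, 143 and 261 CPM after NanoTLZ. *Loxl3* ranged from 41.9 to 370.4 CPM over the 9 tumors and was highest in A3688. The groups overlapped for both.

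The 10 members left out of the test had few counts. *Mmp27* had no count in any tumor, where 3 counts correspond to 0.138 to 0.172 CPM, a limit that covers counting error only. *Mmp20* had 5 counts, all in NanoTLZ tumor C3519. *Mmp1b* had 195 counts in C3519, 53 in i.v. TLZ tumor B3684, at most 6 in the other treated tumors and at most 2 in saline. Its level in each treated group thus rested on 1 tumor. *Mmp1b* is a near copy of *Mmp1a* and shares 10.8% of its exon bases with *Mmp12*, so its counts are uncertain. *Mmp1a* had 21 counts in C3519 and *Mmp7* (matrilysin) 58 counts in the same tumor, which alone set their means in NanoTLZ. *Mmp16* had 110 of its 164 counts in B3684, and *Timp4*, *Mmp21*, *Adamts13* and *Adamts19* had 54, 30, 22 and 24 counts in all.

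**Figure D5:**
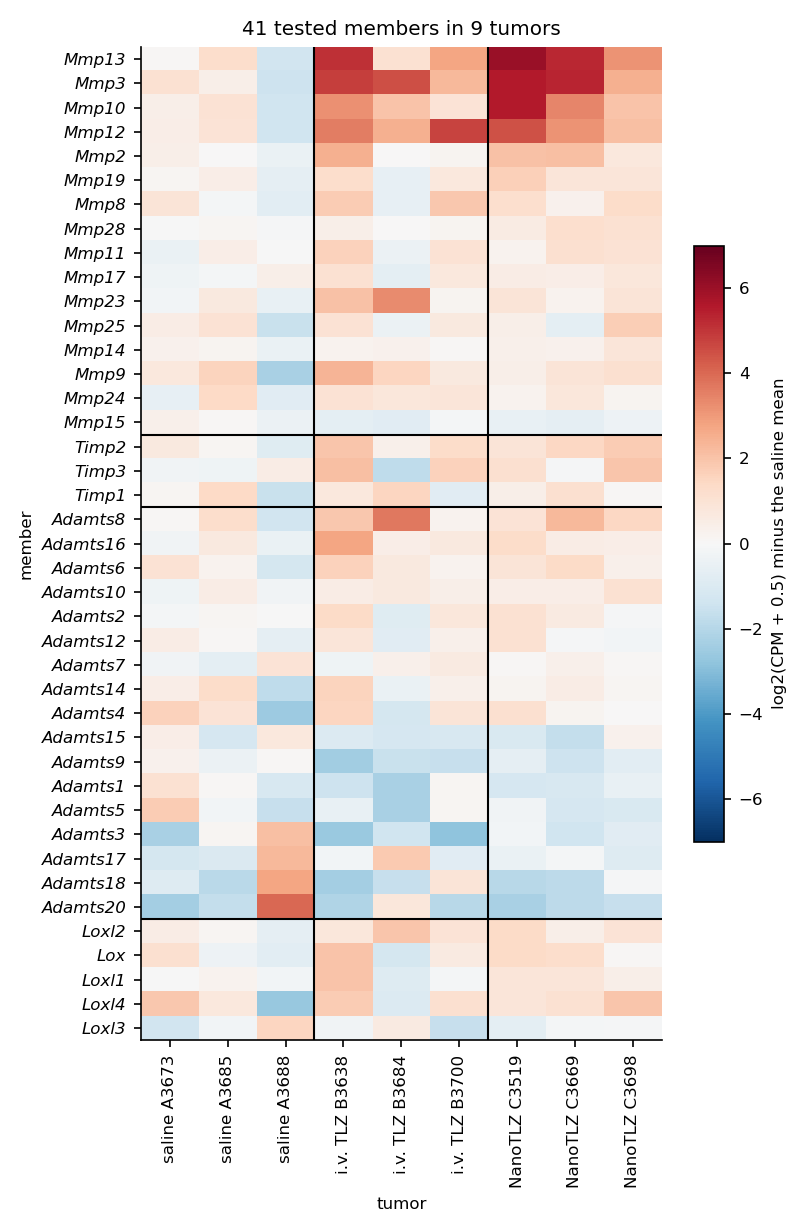
Log2(CPM + 0.5) minus the mean of the saline tumors for the 41 tested members (rows, by family) in the 9 tumors (columns), from blue for lower to red for higher. The top rows, *Mmp13*, *Mmp3*, *Mmp10* and *Mmp12*, are red in most treated tumors, and A3688 is red for *Adamts3*, *Adamts17*, *Adamts18* and *Adamts20* and blue for *Adamts4* and *Loxl4*.

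The members varied between tumors of the same group. Of the 41 tested members, 12 were highest in i.v. TLZ tumor B3638, and 9 were lowest in B3684 of the same group. Such counts were not made over all genes and describe the members only. B3638 had the highest *Mmp2*, *Mmp9*, *Mmp11*, *Timp2*, *Timp3*, *Lox* and *Loxl1*. B3684 had the highest *Mmp23*, *Timp1*, *Adamts8* and *Loxl2* and the lowest *Timp3*, *Adamts1*, *Adamts5*, *Lox* and *Loxl1*. In NanoTLZ, C3519 had the highest *Mmp3*, *Mmp10*, *Mmp13* and *Mmp19*. Across the 9 tumors the Spearman correlation between pairs of *Mmp3*, *Mmp10*, *Mmp12* and *Mmp13* was 0.617 to 0.933, a description over tumors that include the group difference.

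The tumors carried epithelial markers throughout, with the summed level of *Epcam*, *Krt8*, *Krt18*, *Cdh1* and *Elf5* between 2816 and 6544 CPM. Among the marker sums, those of cartilage and bone and of skeletal muscle did not overlap between treated and saline tumors. The other sums overlapped, though some were separate from saline in 1 drug group. The summed level of 8 macrophage markers was 634 to 3026 CPM in saline, 1759 to 3276 after i.v. TLZ and 4140 to 5084 after NanoTLZ, and all 8 were detected. As a description over the 9 tumors, which share the group difference, its Spearman correlation was 0.917 with *Mmp13*, 0.733 with *Mmp3* and 0.683 with *Mmp12*. Over the 6 treated tumors alone it was 0.771, 0.486 and 0.0857 in that order. The sum of 6 osteoclast markers was 51.6 to 152 CPM in saline, 89.1 to 219 after i.v. TLZ and 157 to 241 after NanoTLZ, and its correlation with *Mmp13* was 0.967 over the 9 tumors and 0.943 over the treated tumors. *Acp5*, which macrophages also express, made up most of it, and the defining marker *Calcr* had at most 3 counts in any tumor. Such values were not particular to these lists. Over the treated tumors *Mmp13* also had a correlation of 0.943 with the skeletal muscle sum and 0.886 with the adipocyte sum. It was 0.0857 with cartilage and bone, -0.143 with B and plasma cell and -0.2 with luminal epithelium sums. The 6 T cell markers summed to 5.15 to 13.3 CPM in saline, 2.41 to 22.4 CPM after i.v. TLZ and 15.6 to 33.5 CPM after NanoTLZ, with a correlation of 0.783 with *Mmp13*. The 5 endothelial markers summed to 58.6 to 156 CPM in saline, 66.4 to 177 CPM after i.v. TLZ and 151 to 196 CPM after NanoTLZ, with a correlation of 0.833 with *Mmp13*. The 8 fibroblast markers summed to 1071 to 1471 CPM in saline, 720.5 to 4375 after i.v. TLZ and 1231 to 2120 after NanoTLZ, highest in B3638. The 10 cartilage and bone markers summed to 127 to 502 CPM in saline and 580.5 to 1419 CPM in treated tumors, without overlap, and this rested on *Acan* and *Col2a1*. The other 8 summed to 104 to 492 CPM in saline, 369 to 434 CPM after i.v. TLZ and 284 to 461 CPM after NanoTLZ. The 5 skeletal muscle markers summed to 20.03 to 619 CPM in saline and 1.69 to 3.90 CPM in treated tumors. The 8 neutrophil markers summed to 10.1 to 224 CPM in saline, 41.6 to 190 after i.v. TLZ and 59.7 to 187 after NanoTLZ. For 6 B and plasma cell markers the sums were 612 to 865, 394 to 1414 and 322 to 575 CPM. Every NanoTLZ tumor was below saline on that sum. The sum does not stand for its list. Of the 4 tested markers in it, 3 had a positive and 1 a negative log2 difference after NanoTLZ, with a median of 2.29. Mast cell sums were at most 3.37 CPM. Adipocyte and basal epithelium sums overlapped between groups. The part of these cells in the member levels was not tested.

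Other genes of the same pathways gave few calls by edgeR. Of 12 tested matrix substrates 1 was called by edgeR, *Col2a1*, the chain of type II collagen that *Mmp13* cuts, which was higher after NanoTLZ (adjusted p = 0.0127). Its levels were 9.38, 14.2 and 21.3 CPM in saline, 191, 176 and 141 CPM after i.v. TLZ and 298, 628 and 799 CPM after NanoTLZ, with no overlap between the 3 groups. *Acan*, the aggrecan core protein that the hyalectanases cut, had 0.401, 12.5 and 1.84 CPM in saline, 62.9, 274 and 5.36 CPM after i.v. TLZ and 151, 136 and 159 CPM after NanoTLZ (edgeR adjusted p = 0.420 and 0.552). All 6 treated tumors were above saline for *Col2a1* (2.81% of all genes), and for *Acan* those of the NanoTLZ group were (7.82%). DESeq2 called *Col2a1* in both comparisons with saline and *Acan* after NanoTLZ.

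By edgeR, 0 genes were called among the 7 tested genes of the plasminogen system, 10 activators, inhibitors and clearance genes, 7 ADAMTS-like genes, 7 ADAM sheddases, 8 cathepsins with *Fap*, 19 collagen and elastin maturation genes, and 11 AP-1, ETS and other regulators. At an unadjusted p under 0.05 of the edgeR test, these lists held, in that order, 3, 1, 2, 1, 1, 4 and 3 genes higher and 0 lower after i.v. TLZ. Over all genes tested the shares were 4.91% higher and 5.47% lower. After NanoTLZ the lists held 0, 1, 2, 0, 1, 2 and 2 genes higher, and 1 lower among the ADAMTS-like genes. There the shares over all genes were 3.51% higher and 5.49% lower. Counts this small in short lists are descriptions only. DESeq2 called *Adamtsl3* in both comparisons and *P4ha2* and *P4ha3*, subunits of the prolyl hydroxylase of collagen, after i.v. TLZ. *Lrp1*, the receptor that clears *Mmp13* and other proteases, was at 145, 151 and 144 CPM in saline, 443, 264 and 252 CPM after i.v. TLZ and 274, 327 and 291 CPM after NanoTLZ. It was above saline in all 6 treated tumors (log2 differences 1.12 ± 0.29 and 1.02 ± 0.29, edgeR adjusted p = 0.417 and 0.552). *Adamtsl3*, *Ctsl* and *P4ha3* likewise had all 6 treated tumors above saline, which held for 2.81% of all genes tested. Among the AP-1 genes, *Fosl1* was at 15.7, 27.9 and 2.43 CPM in saline, 37.5, 38.9 and 67.7 CPM after i.v. TLZ and 51.9, 56.0 and 33.9 CPM after NanoTLZ, all treated tumors above saline, with edgeR adjusted p of 0.452 and 0.552. *Fosl1* does not stand for its list. Of the 11 AP-1, ETS and other regulators, 7 had a positive and 4 a negative difference from saline after i.v. TLZ, and likewise after NanoTLZ. Their median log2 differences were 0.62 for i.v. TLZ and 0.21 for NanoTLZ, and 2 had all 6 treated tumors above saline.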

How the data were processed

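Total RNA from 9 tumors was sequenced, and the authors deposited 1 table of raw read counts per gene, without normalization. The submitters' processing notes name TopHat2, DESeq2 and the mm10 build. The counting program and its strand setting are not given in the sources used here. Total counts were 17538380 to 21194980 a tumor. Genes were named, and exon lengths taken, from GENCODE M21 (GRCm38), which held 34490 of 35275 identifiers.

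Genes were kept with filterByExpr (minimum count 10, minimum total 15), and TMM normalization and quasi-likelihood F-tests followed in edgeR 4.0.16 (R 4.3.3), with 1 coefficient per group over 9 tumors and Benjamini-Hochberg adjustment over 15821 genes. Standard errors are the log2 fold change over the square root of F. RPKM is CPM per kilobase of joined exons. Alternatives were DESeq2 1.42.0, RLE and upper quartile scaling, other filters and leaving out each tumor; DESeq2 without A3688 was added after seeing the data. Scripts were tested on simulated data.

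Members given with every tumor were those called by edgeR, those with the smallest p in each comparison (up to 4 each way), those whose treated tumors were all on the same side of saline, the 8 most abundant per length, and members set by known role. A few others are named for their values. The members and lists were chosen with earlier results of these data known.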

Additional observations from a re-analysis of the deposited data

How the results depend on the processing

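With edgeR, 0 members were called in any comparison under RLE or upper quartile scaling, without a filter, with 10 counts required in every tumor, with the compared groups alone, and with each tumor left out. Over all genes edgeR called at most 33 under these settings, for both treated groups without a filter. DESeq2 called 5 members (all 9 tumors), 4 (groups compared) or 3 (without A3688) for i.v. TLZ against saline, 4, 5 and 4 for NanoTLZ against saline, and 5 (all 9) or 4 (without A3688) for both treated groups. Over all genes, in the same order, DESeq2 called 194, 92 and 225, then 110, 171 and 117, then 273 and 208. Leaving out A3688 in DESeq2 was chosen after seeing the data. At an unadjusted p under 0.05 the count was 17 rather than 11 for i.v. TLZ by DESeq2 without A3688, and 14 without a filter and 16 by DESeq2 on the compared groups rather than 9 for NanoTLZ. Over all genes these counts were 1849 rather than 1643, and 1996 and 1836 rather than 1423. For NanoTLZ against i.v. TLZ the member count was 5 without a filter and 6, 8 and 8 by DESeq2 on 9 tumors, on the compared groups and without A3688, rather than 2, and for both treated groups 18 without a filter rather than 11. Over all genes these were 543, 435, 737 and 648 rather than 266, and 2744 rather than 2072. Leaving out 1 tumor gave 8 to 14, 7 to 12, 0 to 6 and 9 to 17 members for the 4 comparisons in that order. Over all genes it gave 1196 to 2605, 796 to 2532, 156 to 623 and 1494 to 3132. The causes were not tested.

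The log2 difference changed sign under at least 1 alternative for 15 of the 41 tested members between i.v. TLZ and saline, 13 between NanoTLZ and saline, 28 between NanoTLZ and i.v. TLZ and 12 for both treated groups. Counting only differences larger than their standard error, these were 5 of 29, 4 of 31, 2 of 11 and 5 of 32, and *Adamts16*, *Adamts17*, *Adamts18* and *Loxl3* were among them. For *Adamts20*, leaving out A3688 gave log2 differences of 2.61 for i.v. TLZ, 0.23 for NanoTLZ and 1.42 for both, and 2.64, 0.23 and 1.44 by DESeq2. Over the tumors left out in turn its values ran from -5.89 to 2.61, from -6.17 to 0.23 and from -5.75 to 1.42, and from -2.91 to 0.29 for NanoTLZ against i.v. TLZ. *Adamts5* ran from -1.79 to 0.16 for i.v. TLZ and from -1.78 to 0.073 for both treated groups, *Lox* from -0.25 to 1.56 and *Loxl1* from -0.50 to 1.31 for i.v. TLZ. No paired analysis was possible because the labels number no tumors across groups. Members under about 3 counts a tumor are below what this depth shows.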
